A study of Homo sapiens with 9 samples.

Results

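LIMp27 siRNA-2 was compared directly with LIMp27 siRNA-1 in WiDr cells, an established human colon adenocarcinoma line that the study describes as p53-mutant. LIMp27 is a long noncoding RNA annotated as LINC01356. The study compared transcriptomes after its knockdown to ask how it promotes the growth of colon adenocarcinoma cells with mutant p53. The 2 siRNAs of different sequence were directed at this same RNA. All cells were grown in DMEM with FBS and transfected for 24 h with 100 nM of siRNA, which was LIMp27 siRNA-1, LIMp27 siRNA-2 or a control siRNA, and each condition had 3 libraries of total RNA. The comparison used the 6 LIMp27 siRNA libraries of the 9 in the series and the 22741 genes, of 25159 in either deposited table, that were listed in both tables. The control siRNA libraries did not enter the test.

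An siRNA is a short double-stranded RNA whose guide strand directs an Argonaute protein to a matching transcript. Studies commonly use siRNAs of different sequence against the same RNA so that the transcripts altered by each can be set side by side. Much of the study concerns p27, the inhibitor of cyclin-dependent kinases (CDKs) encoded by CDKN1B. The protein holds back CDK2 complexes at the entry into S phase, and its amount is set by the SKP2 ubiquitin ligase and by proteins that bind its mRNA, among them hnRNPA0.

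Between 14361629 and 21524623 reads per library were assigned to genes. Within a siRNA, the log2 normalized counts of any pair of libraries differed over genes with an SD of 0.272 to 0.348, and between the siRNAs with an SD of 0.504 to 0.559. No pair of libraries was close enough in its counts to be a duplicate. The share of reads from mitochondrial genes was 7.82% to 8.93% with siRNA-1 and 8.75% to 10.3% with siRNA-2, with siRNA-2 replicate 1 the highest. The study describes the repeats as biological, and the labels do not say whether they were separate cultures, so the p-values measure the spread between these libraries. In bulk RNA, a change per cell and a change in the mix of cell states cannot be told apart.

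The WiDr label was checked against 15 colon epithelial markers, of which 13 were among the joined genes. Of these, 11 had a mean FPKM (fragments scaled to transcript length and library depth, as the authors computed it) of at least 1 with each siRNA, including EPCAM, KRT8, KRT18, KRT19, KRT20 and VIL1, while CDX2 and CDH17 lay below 1. CDX1 and GPA33 were not among the joined genes. Summed over the list, the FPKM was 9709 to 10060 with siRNA-1 and 8358 to 9330 with siRNA-2. Of 15 markers of other lineages, 6 were among the joined genes. LYZ, which intestinal cells also express, supplied nearly all of their summed FPKM, 2071 to 2169 with siRNA-1 and 1388 to 1486 with siRNA-2. CD79A, CD68, VWF and SYP lay below 1 with each siRNA, and COL1A1 reached 1 with siRNA-2, at about 20 normalized counts with each siRNA.

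LIMp27 itself could not be compared at this depth. LINC01356 (ENSG00000215866) is annotated in GRCh38 on chromosome 1, from 112820170 to 112850643 on the minus strand. It had 0, 0 and 0 reads with siRNA-1, 0, 2 and 1 with siRNA-2 and 0, 0 and 2 with control siRNA. The summed counts of 0, 3 and 2 reads had exact 95% Poisson intervals of 0 to 3.69, 0.619 to 8.77 and 0.242 to 7.22, covering only counting error. No condition exceeded the floor of 3 reads, so no fold difference is given. The study itself reports the knockdown in the WiDr cells taken for RNA-seq from qPCR, not from these reads.

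Of 14415 genes with enough reads, 3326 were higher with siRNA-2 (23.1% of those tested) and 3224 were lower (22.4%) at an adjusted p under 0.05 from edgeR, 6550 in all (45.4%). In 7577 genes (52.6%) the libraries of the siRNAs did not overlap, and 6235 of the called genes were among them. The median log2 difference over all tested genes, siRNA-2 minus siRNA-1, was 0.01. The sizes of the called differences had a median of 0.41 (log2), and 4501 of them (68.7%) were under 1.5-fold. Differences of at least 2-fold numbered 265 higher and 452 lower genes, and those of at least 4-fold 26 and 29. When the test asked for more than 1.2-fold, 1334 genes were higher and 1604 lower. Among 11812 protein-coding genes, 3032 were higher and 2976 lower, and among 488 lincRNA genes 55 were higher and 55 lower. Fewer genes were called where reads were few, 18.3% in the lowest of 5 equal bins of mean count against 60.8% in the highest.

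**Figure D1:**
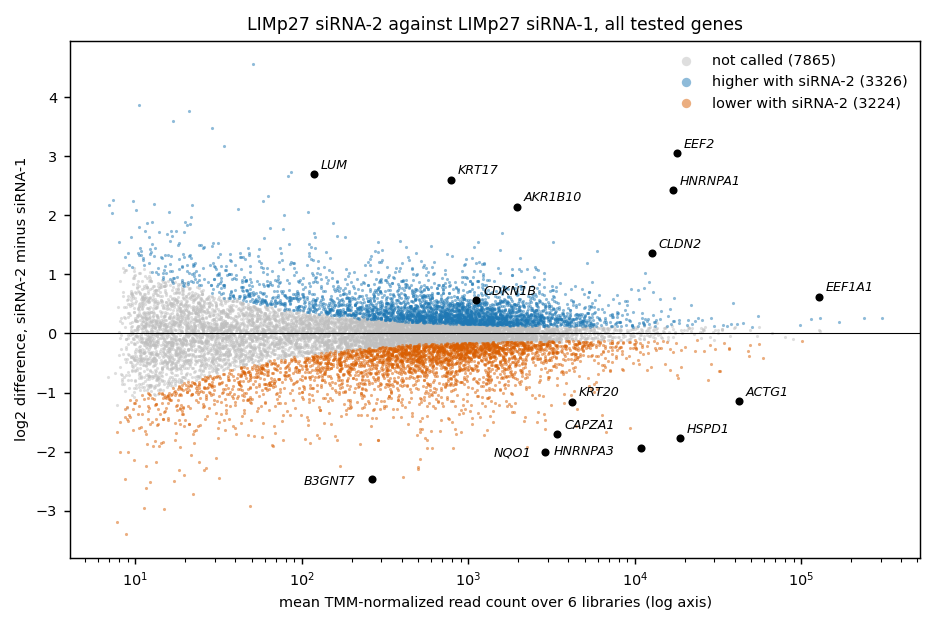
Mean TMM-normalized read count over the 6 siRNA libraries (horizontal, log axis) against the log2 difference, siRNA-2 minus siRNA-1 (vertical), 1 point per tested gene. Blue points are the 3326 genes higher with siRNA-2, orange points the 3224 lower and grey points the 7865 not called at an adjusted p under 0.05, and 15 genes described in the text are named in black. EEF2 and HNRNPA1 stand above the other genes of their level, at 3.06 and 2.42, and HNRNPA3 and HSPD1 below, at −1.94 and −1.77.

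The largest differences among well-read genes with siRNA-2 above siRNA-1 were in EEF2, LUM, KRT17, HNRNPA1, AKR1B10 and VGLL1, each more than 4-fold. The genes with the largest differences either way were chosen from those without overlap between the siRNAs. That their libraries lie apart therefore follows from the choice. Values are normalized counts, which are read counts scaled to the mean effective depth of the 6 libraries, and positions are of GRCh38. EEF2 (ENSG00000167658, chromosome 19 from 3976056 to 3985469), the factor that moves the ribosome along the mRNA in each elongation cycle, had normalized counts of 3992, 3382 and 4158 with siRNA-1 and 30625, 32279 and 33062 with siRNA-2. EEF2 differed by 8.32-fold in the fit (log2 difference 3.06, standard error 0.06, adjusted p = 3.14e-26). HNRNPA1 (ENSG00000135486, chromosome 12 from 54280193 to 54287088), an abundant RNA-binding protein of the splicing machinery, had 5569, 5082 and 5316 normalized counts with siRNA-1 and 29179, 27484 and 29003 with siRNA-2. The log2 difference of HNRNPA1 was 2.42 (standard error 0.05, adjusted p = 6.10e-26). KRT17 (ENSG00000128422, chromosome 17 from 41619441 to 41624842), a keratin of stressed and basal epithelia, had 179.7, 228 and 255 normalized counts with siRNA-1 and 1311, 1396 and 1350.5 with siRNA-2, a log2 difference of 2.60 (standard error 0.09, adjusted p = 7.79e-21). AKR1B10 (ENSG00000198074, chromosome 7 from 134527592 to 134541408), an aldo-keto reductase that reduces retinal and reactive carbonyls, had 751, 669 and 746 with siRNA-1 and 3151, 3162 and 3279 with siRNA-2, a log2 difference of 2.15 (standard error 0.06, adjusted p = 1.71e-22).

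LUM, which encodes the collagen-binding proteoglycan lumican, was low with siRNA-1, at 27.6, 45.2 and 22 normalized counts, and reached 206, 184 and 223 with siRNA-2. Its log2 difference was 2.70 with a wider standard error of 0.18 (adjusted p = 2.22e-13). VGLL1, a cofactor of TEAD transcription factors, had 39.3, 45.2 and 41.6 normalized counts with siRNA-1 and 181, 173 and 171 with siRNA-2 (log2 difference 2.05, adjusted p = 2.26e-12). The other genes of the 10 with the largest rise were SLC38A11, a predicted amino acid transporter (log2 difference 1.88), PHLDB2, which organizes microtubule ends at the cell cortex (1.70), KIAA1191 (1.70) and TGFB2, a secreted TGF-beta ligand (1.66). KIAA1191 had the most reads of these, 778, 776 and 706 normalized counts with siRNA-1 and 2505, 2452 and 2369.6 with siRNA-2, and the other genes of this group ranged from 44.7 to 265.

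Among the largest differences in the other direction were those in B3GNT7, ERAP2, DYNLT3, MYH15 and TSFM, each more than 4-fold lower with siRNA-2. B3GNT7, a glycosyltransferase, had 439, 419 and 488 normalized counts with siRNA-1 and 80.9, 95.1 and 66.8 with siRNA-2. Its log2 difference was −2.47 (standard error 0.12, adjusted p = 6.00e-17). NQO1 (ENSG00000181019, chromosome 16 from 69706996 to 69726951), a quinone reductase and a standard target of the antioxidant factor NRF2, had 4755, 4423 and 4658 with siRNA-1 and 1239, 1158 and 1054 with siRNA-2, a log2 difference of −1.999 (standard error 0.06, adjusted p = 6.27e-22). HNRNPA3 (ENSG00000170144, chromosome 2 from 177212563 to 177223958), a relative of HNRNPA1, had 17040, 17613 and 17036 with siRNA-1 and 4697, 4324 and 4446 with siRNA-2, a log2 difference of −1.94 (standard error 0.05, adjusted p = 1.53e-23). The direction was opposite to that of HNRNPA1.

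ERAP2, a peptidase that trims antigens in the endoplasmic reticulum, differed by −2.30 on the log2 scale, and DYNLT3, a dynein light chain, by −2.25. MYH15, a myosin heavy chain, differed by −2.24, and TSFM, the mitochondrial elongation factor Ts, by −2.13. PRPSAP2, which associates with phosphoribosyl pyrophosphate synthetase, and GGCT, a glutathione-cycle enzyme, each differed by −1.95. TSFM, for example, had 879, 775 and 866 normalized counts with siRNA-1 against 195, 191 and 188 with siRNA-2.

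**Figure D2:**
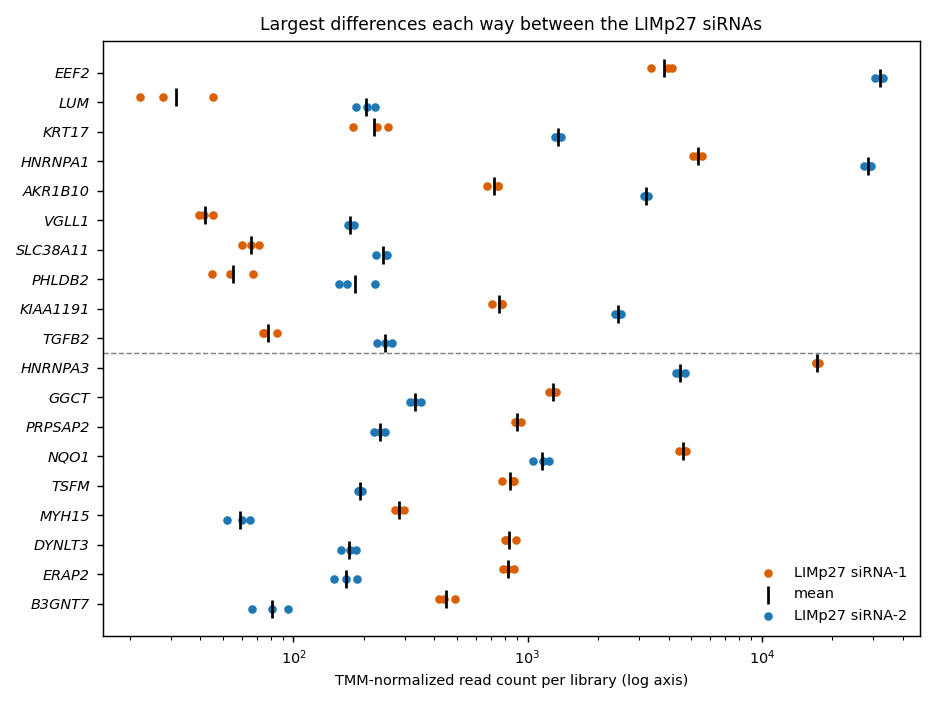
TMM-normalized read count in each library (log axis) of 19 genes among those with the largest differences in either direction, siRNA-2 above siRNA-1 over the dashed line and below it under the line. They were taken from called genes without overlap between the groups that averaged 100 normalized counts or more over the 6 libraries. Orange points are the 3 siRNA-1 libraries, blue points the 3 siRNA-2 libraries and black ticks their means. The groups overlap in none of the 19 genes because genes with overlap were left out of the choice.

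Some of these genes have near-identical copies in the genome, and how reads that fit several copies were counted is not given in the sources used here. The 3 tested genes named as HNRNPA1 pseudogenes were all higher with siRNA-2, HNRNPA1P48 by 2.73, HNRNPA1P7 by 2.33 and HNRNPA1P10 by 2.10 on the log2 scale. Both tested HNRNPA3 pseudogenes were lower, HNRNPA3P5 at −2.31 and HNRNPA3P6 at −1.51. Of 7 tested EEF1A1 pseudogenes 6 were higher, and HSPD1P1 and LDHAP4 were lower, as were their parents. EIF1AXP1 was not called (−0.45, adjusted p = 0.305), while its parent EIF1AX was lower, and none of 6 tested FTH1 pseudogenes was called, nor was FTH1. These copies held far fewer reads than the parents, and the values of parent and copies cannot be separated here. Ribosomal protein, actin and aldo-keto reductase genes have close relatives as well, and their values carry the same uncertainty.

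Each siRNA was also set beside the control siRNA libraries, which the separate comparisons share. Of 14347 genes tested for siRNA-1, 7868 (54.8%) were called against control siRNA, and of 14204 tested for siRNA-2, 8059 (56.7%). EEF2 had a log2 difference from control siRNA of −3.35 with siRNA-1 and −0.30 with siRNA-2, HNRNPA1 of −2.19 and 0.22, KRT17 of −2.28 and 0.31, and KIAA1191 of −1.48 and 0.21. For AKR1B10 these were −3.44 and −1.30 and for PHLDB2 −2.46 and −0.77, so that these genes lay below control siRNA with each. LUM had 0.12 with siRNA-1 (adjusted p = 0.763) and 2.80 with siRNA-2 (adjusted p = 5.08e-14), and VGLL1 −0.07 (adjusted p = 0.798) and 1.97 (adjusted p = 1.48e-11). Among the genes lower with siRNA-2, NQO1 had −0.47 with siRNA-1 and −2.48 with siRNA-2, TSFM −0.06 and −2.20, and DYNLT3 0.07 and −2.20. HNRNPA3 and B3GNT7 lay on opposite sides of control siRNA, with 0.50 and −1.45 for HNRNPA3 and 1.37 and −1.11 for B3GNT7 (adjusted p = 3.41e-12 and 7.75e-07).

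**Figure D3:**
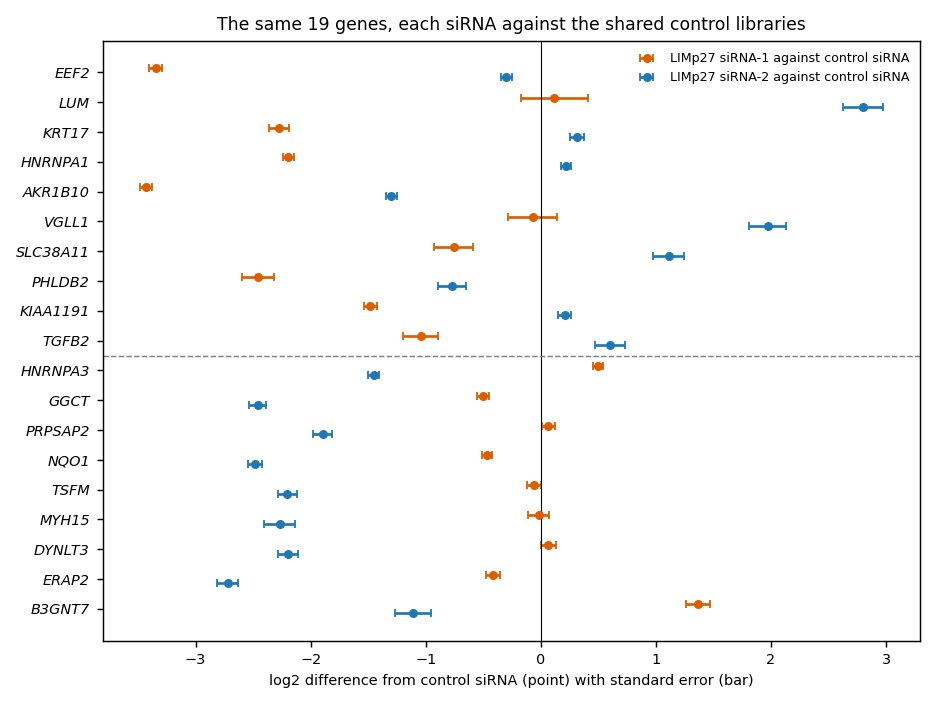
Log2 difference from control siRNA (horizontal) of the same 19 genes with LIMp27 siRNA-1 (orange) and LIMp27 siRNA-2 (blue). Points are the edgeR estimates and bars their standard errors, and the 3 control libraries are the same in both comparisons. EEF2 lies at −3.35 with siRNA-1 and −0.30 with siRNA-2, and NQO1 at −0.47 and −2.48.

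CDKN1B and the other genes named for their place in the study or in the cell cycle differed less. CDKN1B (chromosome 12 from 12715058 to 12722371) had 894, 884 and 926 normalized counts with siRNA-1 and 1260.2, 1357 and 1390.1 with siRNA-2, and was higher with siRNA-2 in all 3 libraries, a log2 difference of 0.56 (standard error 0.06, adjusted p = 7.62e-09). Against control siRNA, CDKN1B had log2 differences of 0.06 with siRNA-1 (adjusted p = 0.381 from edgeR), which was not called, and 0.62 with siRNA-2 (adjusted p = 5.09e-09). CDKN1A (chromosome 6 from 36676460 to 36687339), which encodes the CDK inhibitor p21, had 601, 674 and 673 with siRNA-1 and 761, 769.9 and 868 with siRNA-2, a log2 difference of 0.30 (adjusted p = 0.00126). HNRNPA0, which encodes the p27 mRNA-binding protein, had 6704, 6782 and 6729.5 with siRNA-1 and 7909, 8581 and 8051 with siRNA-2, a log2 difference of 0.28 (adjusted p = 1.73e-05). MYC, a growth-promoting transcription factor, was higher with siRNA-2 by 0.32 (adjusted p = 1.42e-05). E2F1, a transcription factor of S phase entry, had 1465, 1352 and 1477 with siRNA-1 and 1419, 1496 and 1409.9 with siRNA-2, and its log2 difference of 0.01 had a 95% interval of −0.11 to 0.13.

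**Figure D4:**
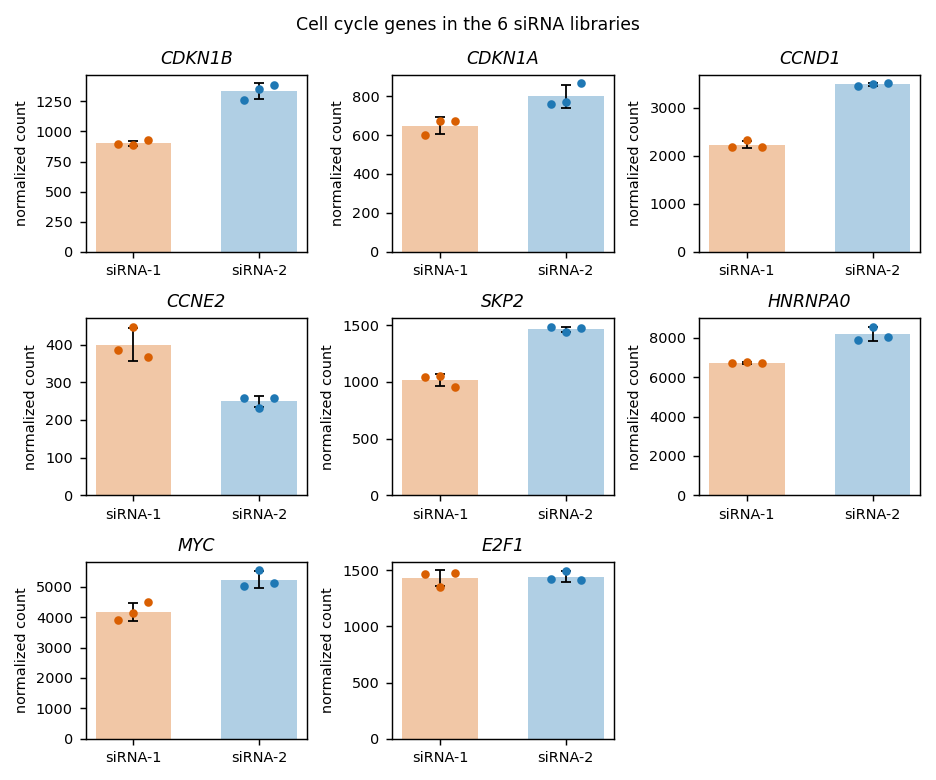
TMM-normalized read counts of CDKN1B, CDKN1A, CCND1, CCNE2, SKP2, HNRNPA0, MYC and E2F1 with LIMp27 siRNA-1 (orange) and LIMp27 siRNA-2 (blue), each axis from 0. Points are the 3 libraries, bars the means and error bars the SDs (n = 3). CDKN1B had 902 ± 21.8 with siRNA-1 and 1336 ± 67.5 with siRNA-2, and the libraries of E2F1 overlap.

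To describe groups of genes, 34 lists with 896 genes were used, of which 819 had enough reads, and each count below is of tested members. Each count is to be read beside the shares over all tested genes, 23.1% higher and 22.4% lower, or 45.4% called. Nucleolar ribosome biogenesis genes (44.8% called), small RNA machinery genes (47.4%) and genes around the LIMp27 locus (50%) lay near that share. Values given after a gene as higher or lower are log2 differences, siRNA-2 minus siRNA-1. Where a list's median has a range, it is the lowest and highest median with 1 library, or 1 replicate number of both siRNAs, left out, and the libraries named are those without which the median moved by over 1.5 times or changed sign. Of 14 genes for p27 turnover or p27 mRNA binding, 5 were higher with siRNA-2, 4 lower and 5 not called, with a median log2 difference of 0.00011 (range −0.02 to 0.02, moved whichever library or replicate number was left out) against 0.01 over all tested genes. SKP2, the substrate receptor of the ligase that marks p27 for degradation, had 1039.7, 1051 and 955 normalized counts with siRNA-1 and 1480.2, 1437 and 1474 with siRNA-2 (log2 difference 0.53, adjusted p = 1.60e-08), and its adaptor SKP1 had a log2 difference of −0.08 that was not called (95% interval −0.20 to 0.04) and was called without siRNA-2 replicate 3 (−0.16, adjusted p = 0.0122) and without replicate 3 of both siRNAs (−0.17, adjusted p = 0.0318). The hnRNP members went both ways. HNRNPA2B1 was lower, at −0.64 (adjusted p = 6.63e-13) and HNRNPD, also known as AUF1, at −0.38 (adjusted p = 1.18e-07), while HNRNPA1 and HNRNPA0 were higher. Per length, HNRNPA1 stood at an FPKM of 269 ± 11.9 (SD, n = 3) with siRNA-1 and 1427 ± 43.2 with siRNA-2, HNRNPA3 at 455 ± 8.84 and 117 ± 4.42, HNRNPA2B1 at 731 ± 8.29 and 465 ± 12.2, and HNRNPA0 at 43.9 ± 0.318 and 52.6 ± 2.45. HNRNPA1 was therefore below HNRNPA3 and HNRNPA2B1 with siRNA-1 and above both with siRNA-2.

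Replication genes were called lower with siRNA-2 far more often than higher, and cyclins on either side. Of 48 genes for licensing of replication and for the fork, 23 (47.9%) were lower with siRNA-2, 2 were higher and 23 were not called, against 22.4% lower and 23.1% higher over all tested genes, and the list's median log2 difference was −0.14. FEN1, the flap endonuclease of Okazaki fragments, had 4384, 4419 and 4419 normalized counts with siRNA-1 and 2397, 2488 and 2355 with siRNA-2 (log2 difference −0.87, adjusted p = 5.62e-15). MCM4, part of the MCM helicase, had 5286, 5265 and 5256 with siRNA-1 and 3637, 3562 and 3432 with siRNA-2 (log2 difference −0.57, adjusted p = 4.00e-11). The siRNA-2 libraries lay below the siRNA-1 libraries in both genes, and 52.6% of all tested genes had no overlap in either direction. The higher members were WDHD1, a replisome adaptor (0.67), and GINS3, a helicase cofactor (0.46). MCM7, the most highly counted member not called, differed by −0.11 (95% interval −0.20 to −0.01, adjusted p = 0.0578) and passed the threshold with DESeq2 (−0.11, adjusted p = 0.0266), without siRNA-2 replicate 3 (−0.13, adjusted p = 0.0294) and in 3 other alternatives.

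Of 46 mitosis, spindle and kinetochore genes, 20 were lower, 7 higher and 19 not called (median −0.09, range −0.11 to −0.06, moved without replicate 2 of both). CCNA2, cyclin A2, had 1599 ± 37.7 normalized counts (SD, n = 3) with siRNA-1 and 979 ± 15.3 with siRNA-2 (log2 difference −0.71, adjusted p = 2.00e-11), and NCAPD2, a condensin subunit, was lower, at −0.56. ANLN, the cytokinetic scaffold anillin, and BIRC5, survivin, were higher by 0.64 and 0.62 (adjusted p = 7.63e-11 and 4.10e-11). TOP2A had a log2 difference of −0.07 (95% interval −0.18 to 0.03). Of 22 nucleotide synthesis genes, 8 were lower, 4 higher and 10 not called (median 0.03, range 0.01 to 0.04, moved without siRNA-2 replicates 1 and 2), and 5 were lower without replicate 1 of both siRNAs. TYMS, thymidylate synthase, was lower, at −0.69 and IMPDH1, which makes guanine nucleotides, at −0.87, while GART and PRPS2 of the purine pathway were higher by 0.25 and 0.36. PAICS, of the same pathway, was not called (0.06, 95% interval −0.04 to 0.16).

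Of 17 CDK inhibitors, G1 cyclins, CDKs and pocket proteins, 7 were higher, 5 lower (3 without replicate 2 of both siRNAs) and 5 not called, with a median of 0.01 (range −0.11 to 0.09, moved whichever library or replicate number was left out). CCND1, cyclin D1, had 2182, 2320.1 and 2189.9 normalized counts with siRNA-1 and 3456, 3494 and 3509 with siRNA-2 (log2 difference 0.64, adjusted p = 9.09e-12). It lay below control siRNA with each, at −1.83 with siRNA-1 and −1.19 with siRNA-2. Between the siRNAs, CCND3, cyclin D3, differed in the direction opposite to CCND1, by −0.45 (adjusted p = 4.04e-06), and CCNE2, cyclin E2, by −0.68 (adjusted p = 6.95e-07). RB1, the retinoblastoma protein gene, had a log2 difference of 0.01 (95% interval −0.12 to 0.14). Of 10 E2F and DP genes, 4 were higher, 3 lower and 3 not called (median 0.11, range 0.07 to 0.14, moved without replicate 2 of both). The activator E2F3 was lower, at −0.76 (adjusted p = 1.87e-10) and E2F8, a repressor that works with E2F7, at −0.52, while E2F7 was higher by 0.42 and the partner TFDP1 by 0.25.

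Apoptosis genes and p53 target genes were divided in these cells, which the study describes as p53-mutant. Of 27 p53 target genes, 9 were higher with siRNA-2, 11 lower and 7 not called (median −0.11, range −0.17 to −0.02, moved without siRNA-1 replicate 2 or replicate 2 of both). SESN2, a stress-induced inhibitor of mTORC1, and GDF15, a secreted stress cytokine, were higher by 0.87 and 0.68 (adjusted p = 1.97e-11 and 6.85e-11). GDF15 lay below control siRNA with each, at −1.31 with siRNA-1 and −0.64 with siRNA-2. TRIAP1, an apoptosis inhibitor of the mitochondrial lipid transfer machinery, had 868, 802 and 799.6 normalized counts with siRNA-1 and 335, 283 and 313 with siRNA-2, a log2 difference of −1.40 (adjusted p = 3.09e-15). PMAIP1, which encodes the BH3-only protein NOXA, had 472, 468 and 465 with siRNA-1 and 215, 219 and 221 with siRNA-2, a log2 difference of −1.10 (adjusted p = 7.65e-12).

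Of 14 BCL2 family genes, 5 were higher and 5 lower, and 4 were not called (median 0.12, range 0.07 to 0.14, moved without siRNA-1 replicate 2 or replicate 2 of both), with 3 higher when replicate 1 or replicate 2 of both siRNAs was left out and 3 lower without replicate 3. The BH3-only genes did not move together. BMF had 389, 417 and 449.6 normalized counts with siRNA-1 and 1074, 1122 and 1013 with siRNA-2 (log2 difference 1.35, adjusted p = 8.90e-16) and BBC3, PUMA, had 248, 239 and 239.9 and 427, 547 and 430.4 (log2 difference 0.95, adjusted p = 1.73e-09). In these genes siRNA-2 was higher, against the lower PMAIP1. MCL1, which protects against apoptosis, was lower, at −0.23 (adjusted p = 0.000171), and the pore former BAX had a log2 difference of 0.12 that was not called (adjusted p = 0.0777) and was called after an adjustment for GC content and length (0.14, adjusted p = 0.0282). Of 19 genes for inhibitors of apoptosis and NF-kB feedback, 8 were higher, 2 lower (1 without siRNA-1 replicate 3) and 9 not called (median 0.06, range 0.05 to 0.11, moved without replicate 2 of both). NFKBIZ, an atypical IkB protein, and NFKB1, the p105 precursor, were higher by 0.96 and 0.76 (adjusted p = 1.26e-12 and 1.83e-10). TNIP2, a partner of A20, was lower, at −0.78, and TNFAIP3, A20 itself, at −0.43 (adjusted p = 0.00783), a call lost without siRNA-1 replicate 3 (−0.29, adjusted p = 0.107) or siRNA-2 replicate 1 (−0.34, adjusted p = 0.0652). RELA differed by 0.06 (95% interval −0.05 to 0.17).

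Other translation genes differed less than EEF2. Of 24 translation elongation and termination genes, 8 were higher with siRNA-2, 7 lower and 9 not called, with a median of 0.07 (range 0.01 to 0.07, moved without siRNA-1 replicates 2 and 3 or replicates 2 and 3 of both). EEF1A1, which delivers aminoacyl-tRNA to the ribosome, had 99564, 100130 and 102000 normalized counts with siRNA-1 and 148360, 151470 and 164660 with siRNA-2 (log2 difference 0.62, adjusted p = 2.23e-12). TSFM and GFM1, elongation factors of the mitochondrial ribosome, were lower, at −2.13 and −0.73. EIF5A had a log2 difference of −0.11 (adjusted p = 0.063), which passed the threshold without siRNA-2 replicate 1 (−0.13, adjusted p = 0.0480) and in 6 other alternatives. Per length, EEF2 had an FPKM of 254 ± 27.2 (SD, n = 3) with siRNA-1 and 2091 ± 90.9 with siRNA-2, beside 2971 ± 45.5 and 4522 ± 268 for EEF1A1.

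Of 40 translation initiation genes, 16 were higher, 7 lower and 17 not called (median 0.08, range 0.05 to 0.09, moved without siRNA-1 replicate 1, siRNA-2 replicate 3 or replicate 1 of both), and 10 were higher without replicate 2 or without replicate 3 of both siRNAs. The largest differences were on the lower side. EIF4E2, a cap-binding protein that represses translation, had 2145, 2025 and 2051 normalized counts with siRNA-1 and 755, 725 and 715 with siRNA-2 (log2 difference −1.50, adjusted p = 7.98e-19), and EIF1AX, a scanning factor, was lower, at −1.05 (adjusted p = 1.02e-16). EIF4H and EIF4G3 were higher by 0.31 and 0.39, and the scaffold EIF4G1 had a log2 difference of 0.01 (95% interval −0.09 to 0.11).

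Of 84 cytosolic ribosomal protein genes, 27 (32.1%) were higher with siRNA-2, 5 lower and 52 not called, 38.1% called against 45.4% of all tested genes. The median log2 difference of the ribosomal protein genes was 0.09 (range 0.05 to 0.12, moved without replicate 2 of both), and the highest was RPL38 at 0.42 (adjusted p = 5.53e-08), followed by RPL37 at 0.39. RPL31 and RPL22 were lower, at −0.33 and −0.32. The count of higher genes was 8 without replicate 2 of both siRNAs, 10 without siRNA-1 replicate 2 and 13 without siRNA-1 replicate 3. RPLP0 had 49004, 47026 and 49374 normalized counts with siRNA-1 and 52056, 51565 and 47779 with siRNA-2 and was not called (0.06, 95% interval −0.04 to 0.15). Of 58 nucleolar ribosome biogenesis genes, 13 (22.4%) were higher, 13 (22.4%) lower and 32 not called (median 0.02, range −0.0032 to 0.03, moved without siRNA-1 replicates 1 and 3, siRNA-2 replicates 1 and 3 or replicates 1 and 3 of both). These shares were near the 23.1% higher and 22.4% lower over all tested genes. NOLC1, a nucleolar scaffold, and DDX10 were higher by 0.67 and 0.55 (adjusted p = 9.17e-13 and 5.69e-09), UTP15 and DDX18 lower, at −1.19 and −0.81 (adjusted p = 6.48e-13 and 5.06e-13), and nucleolin, NCL, differed by 0.07 (95% interval −0.03 to 0.16).

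Of 13 mitochondrially encoded protein genes, 5 were higher with siRNA-2, 0 lower and 8 not called by edgeR, with a median of 0.10 (range 0.03 to 0.18, moved without siRNA-1 replicates 1 and 3 or replicates 2 and 3 of both). No member was lower at an unadjusted p under 0.05 (0) or by DESeq2 (0), which called 4 higher. MT-ND1, of respiratory complex I, had 53063, 49334 and 46644 normalized counts with siRNA-1 and 66858, 56200 and 59334 with siRNA-2 (log2 difference 0.29, adjusted p = 6.26e-05), and MT-CO2, of cytochrome oxidase, was higher by 0.26 (adjusted p = 0.000259). MT-ND4 was not called (0.03, 95% interval −0.08 to 0.15). The highest value of MT-ND1 was that of siRNA-2 replicate 1, the library with the highest mitochondrial share, and without it 3 genes were higher and 1, MT-CYB, was lower (−0.15, adjusted p = 0.0471). Without siRNA-1 replicate 3 or replicate 3 of both siRNAs, 3 genes were higher.

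Genes of the endoplasmic reticulum stress response and of cholesterol and fatty acid synthesis were called higher with siRNA-2 more often than lower. Chaperone genes of the cytosol and mitochondria were called lower more often than higher. Of 32 integrated stress and unfolded protein response genes, 16 (50%) were higher, 3 lower and 13 not called, with a median log2 difference of 0.23. DNAJB9, a BiP cofactor of the endoplasmic reticulum, had 1362, 1481 and 1503 normalized counts with siRNA-1 and 3005, 2808 and 3469 with siRNA-2 (log2 difference 1.09, adjusted p = 8.96e-15). PSAT1, a serine synthesis enzyme under ATF4 control, had 1565, 1523 and 1585 with siRNA-1 and 2914, 2857 and 2754 with siRNA-2 (log2 difference 0.87, adjusted p = 2.90e-14), and ATF3, which is also on the immediate early list, was higher by 0.98. The lower members were EDEM1, of the degradation pathway for misfolded glycoproteins (−0.67), PPP1R15A, GADD34 (−0.21), and DDIT4, an mTORC1 inhibitor (−0.16). CALR, calreticulin, was not called (0.02, 95% interval −0.07 to 0.12).

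Of 31 cytosolic and mitochondrial chaperone genes, 16 (51.6%) were lower with siRNA-2, 7 higher and 8 not called (median −0.16). HSPD1 (chromosome 2 from 197486581 to 197516737), the mitochondrial chaperonin HSP60, had 28853, 28942 and 28840 normalized counts with siRNA-1 and 9077, 8378 and 7852 with siRNA-2, a log2 difference of −1.77 (standard error 0.05, adjusted p = 3.42e-22). BAG3, a cochaperone of HSP70, was lower, at −0.90 (adjusted p = 4.20e-13). TCP1, CCT2, CCT3, CCT4, CCT6A, CCT7 and CCT8, which encode subunits of the cytosolic chaperonin, were all among the lower genes, at −0.16 to −0.51, while CCT5 was not called (−0.09). HSPA9, the mitochondrial HSP70, and HSF1, the heat shock factor, were higher by 0.35 and 0.46. HSPA8, the constitutive HSP70, had 26519, 30193 and 31484 normalized counts with siRNA-1 and 27320, 29269 and 33291 with siRNA-2 and was not called (0.03, 95% interval −0.10 to 0.15).

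Of 31 cholesterol and fatty acid synthesis genes, 18 (58.1%) were higher, 5 lower and 8 not called, with a median log2 difference of 0.37 against 0.01 over all tested genes. ACACA, acetyl-CoA carboxylase, had 4621, 4807 and 4815 normalized counts with siRNA-1 and 7422, 7399 and 7526 with siRNA-2 (log2 difference 0.65, adjusted p = 1.27e-12). FASN, the fatty acid synthase, had 8234, 8476 and 8694 with siRNA-1 and 11584, 13939 and 12445 with siRNA-2 (log2 difference 0.58, adjusted p = 3.03e-10). The groups did not overlap in either gene, as in 52.6% of all tested genes, and both were chosen after their values were seen. The transcription factor genes SREBF1 and SREBF2 were higher by 0.54 and 0.43. SCD, the stearoyl-CoA desaturase, and INSIG1, which retains SREBP in the endoplasmic reticulum, were lower, at −0.57 and −0.69 (adjusted p = 7.76e-11 and 2.33e-10), and FDFT1, squalene synthase, was not called (0.03, 95% interval −0.07 to 0.13). Against control siRNA, ACACA had log2 differences of −0.44 with siRNA-1 and 0.20 with siRNA-2.

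Of 25 tested genes on the glycolytic enzyme list, 13 (52%) were lower with siRNA-2, 6 higher and 6 not called (median −0.20). The list also holds TXNIP, which is not a glycolytic enzyme and was among the higher genes. ENO2, an enolase, had 806, 920.1 and 919.5 normalized counts with siRNA-1 and 235, 263 and 265 with siRNA-2 (log2 difference −1.80, adjusted p = 2.09e-17). LDHA, lactate dehydrogenase, had 35319, 35262 and 34298 with siRNA-1 and 20122, 19411 and 21032 with siRNA-2 (log2 difference −0.79, adjusted p = 7.06e-15). HK2, a hexokinase, and TXNIP, a glucose-responsive inhibitor of glucose uptake, were higher by 0.38 and 0.50. PGK1 was not called (−0.09, 95% interval −0.21 to 0.02), although it was called without siRNA-2 replicate 3 (−0.18, adjusted p = 0.0028) and without replicate 3 of both siRNAs (−0.16, adjusted p = 0.0328).

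Of 25 NRF2 target and aldo-keto reductase genes, 13 (52%) were higher with siRNA-2, 5 lower and 7 not called (median 0.19). The aldo-keto reductases AKR1B10, AKR1C1, AKR1C2 and AKR1C3 were higher, AKR1C3 from 2516, 2442 and 2359.6 normalized counts with siRNA-1 to 4112, 4025 and 3986 with siRNA-2 (log2 difference 0.73, adjusted p = 4.40e-13). NQO1 and the glutathione synthesis gene GCLM were lower, GCLM at −0.68 (adjusted p = 3.43e-11), and GCLC and HMOX1 at −0.42 and −0.47. TALDO1 was not called (−0.05, 95% interval −0.15 to 0.06). Of 16 iron uptake, storage and export genes, 5 were higher, 6 lower and 5 not called (median 0.01, range −0.02 to 0.01, moved without siRNA-1 replicates 1 and 2, siRNA-2 replicates 2 and 3 or replicates 1 and 2 of both). TFRC, the transferrin receptor, was lower, from 5394, 5761 and 5932 normalized counts with siRNA-1 to 2935, 2849 and 2905 with siRNA-2 (log2 difference −0.98, adjusted p = 4.93e-16), as was the importer SLC39A14 (−0.54). NCOA4, the receptor for ferritin degradation, and the ferrireductase STEAP4 were higher by 0.63 and 1.06. STEAP4 had few reads, 44.7, 42.3 and 41.6 normalized counts with siRNA-1 and 89.1, 95.1 and 82.9 with siRNA-2 (standard error 0.18). It lay below control siRNA with each, at −1.64 with siRNA-1 and −0.59 with siRNA-2. Ferritin heavy chain, FTH1, had a log2 difference of 0.01 (95% interval −0.09 to 0.10).

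Wnt, EGF and ERK genes moved in both directions. Of 22 Wnt feedback and intestinal stem cell genes, 7 were higher with siRNA-2, 6 lower and 9 not called (median −0.05, range −0.08 to −0.03, moved without siRNA-2 replicates 1 and 3). NKD1, an inhibitor of Wnt signaling, had 856, 949 and 911 normalized counts with siRNA-1 and 263, 286 and 320.3 with siRNA-2 (log2 difference −1.65, adjusted p = 1.02e-16), and PROX1, a homeobox factor induced by Wnt in colon tumors, had 185, 199 and 179.5 and 51.8, 60.3 and 60.6 (log2 difference −1.71, adjusted p = 3.01e-11). LGR5, the stem cell receptor for R-spondins, differed in the opposite direction, with 533, 553 and 525 for siRNA-1 and 918, 868 and 978 for siRNA-2 (log2 difference 0.78, adjusted p = 1.02e-10), and the secreted antagonist DKK1 was higher by 0.47. NKD1 lay above control siRNA with each, at 3.20 with siRNA-1 and 1.54 with siRNA-2. LGR5 lay below control siRNA with each, at −1.25 with siRNA-1 and −0.48 with siRNA-2. CD44 was not called (−0.06, 95% interval −0.17 to 0.04). Of 10 EGF receptor family and ligand genes, 5 were lower (3 without siRNA-2 replicate 1 or without replicate 1 of both siRNAs), 3 higher and 2 not called (median −0.33). The ligand genes EREG and TGFA were lower, at −1.04 and −0.88 (adjusted p = 1.69e-14 and 4.19e-12), and the receptor genes ERBB2 and ERBB3 higher by 0.49 and 0.36 (adjusted p = 2.96e-08 and 4.32e-06). AREG, another ligand, had a log2 difference of −0.12 (adjusted p = 0.0807), which passed the threshold without siRNA-2 replicate 3 (−0.21, adjusted p = 0.00137), siRNA-1 replicate 1 (−0.17, adjusted p = 0.0286) or replicate 3 of both siRNAs (−0.17, adjusted p = 0.0207) and in 2 other alternatives.

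Of 21 ERK pathway output genes, 5 were higher, 8 lower and 8 not called (median −0.06, range −0.13 to −0.06, moved without siRNA-2 replicates 2 and 3 or replicates 2 and 3 of both). DUSP5, a nuclear ERK phosphatase, and FOSL1, an AP-1 subunit, were lower, at −0.46 and −0.62, SPRED2, a Ras pathway inhibitor, was higher by 0.55, and EGR1 was not called (0.06, 95% interval −0.04 to 0.16). Of 17 AP-1 and immediate early genes, 6 were higher, 3 lower and 8 not called (median −0.03, range −0.05 to 0.03, moved without siRNA-1 replicates 1, 2 and 3, siRNA-2 replicate 3 or replicates 2 and 3 of both). FOS was lower, at −0.46 (adjusted p = 4.81e-08) and JUND higher by 0.47 (adjusted p = 4.34e-07), while JUN, with overlapping libraries, differed by −0.06 (95% interval −0.18 to 0.06).

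Interferon-stimulated genes were mostly low in these cells. Of 40 such genes and RNA sensors only 23 had enough reads, and of these 11 were lower with siRNA-2, 1 was higher and 11 were not called (median −0.26). IFIT5 had 168, 216 and 180.3 normalized counts with siRNA-1 and 117, 89.3 and 106 with siRNA-2 (log2 difference −0.84, adjusted p = 6.68e-06), and OASL, at 44.7, 35.8 and 26.9 and 13.6, 9.28 and 12.4, differed by −1.56 (standard error 0.33, adjusted p = 0.000229). The count of lower genes depended on single libraries, with 6 without siRNA-1 replicate 2 or siRNA-2 replicate 1, 7 without siRNA-1 replicate 1, and 5 and 6 without replicate 1 and replicate 2 of both siRNAs. ISG20, an exonuclease, was the gene higher with siRNA-2 (0.65, adjusted p = 1.40e-06).

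Of 13 chemokine and inflammatory mediator genes tested, 3 were higher, 4 lower (2 without replicate 3 of both siRNAs) and 6 not called (median −0.23). CXCL8, interleukin 8, had 1725, 1661 and 1549 normalized counts with siRNA-1 and 844, 879 and 1031 with siRNA-2 (log2 difference −0.84, adjusted p = 1.14e-11), and IL1RN was lower, at −0.96. IL18 and CXCL16 were higher by 0.57 and 0.30, and LCN2 was not called (0.10, 95% interval −0.18 to 0.39). Of 19 genes of the small RNA machinery, which siRNAs themselves enter, 5 were higher (8 without siRNA-2 replicate 2), 4 lower and 10 not called (median 0.06, range 0.01 to 0.13, moved without siRNA-1 replicate 1, siRNA-2 replicates 2 and 3 or replicates 1 and 2 of both). DICER1, which cuts small RNA precursors, and XPO5, which exports them, were higher by 0.73 and 0.27, while TARBP2, a partner of Dicer, and AGO2, the slicing Argonaute, were lower, at −0.77 and −0.27 (adjusted p = 1.87e-11 and 3.49e-05). CNOT1, of the deadenylase complex, was not called (−0.08, 95% interval −0.21 to 0.05), though it was called without siRNA-2 replicate 3 (−0.19, adjusted p = 0.00596).

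Actin genes and epithelial structure genes were also divided. Of 35 actin, tropomyosin and cofilin genes, 10 were higher with siRNA-2, 14 lower and 11 not called (median −0.07, range −0.09 to −0.04, moved without siRNA-1 replicate 3 or replicate 3 of both). ACTG1, cytoplasmic gamma actin, had 55315, 58924 and 60656 normalized counts with siRNA-1 and 26593, 27313 and 24909 with siRNA-2 (log2 difference −1.15, adjusted p = 3.30e-18). ACTB, beta actin, had 89972, 94074 and 95142 and 86367, 88871 and 85480 and was not called (−0.10, adjusted p = 0.0742), although it passed the threshold without siRNA-1 replicate 1 (−0.13, adjusted p = 0.0263), without replicate 1 of both siRNAs (−0.12, adjusted p = 0.0298) and in 4 other alternatives. The smooth muscle type genes MYL9 and TAGLN were higher. MYL9 had 22.3, 26.3 and 18.8 normalized counts with siRNA-1 and 140.0, 119 and 168 with siRNA-2, a log2 difference of 2.66 (standard error 0.20, adjusted p = 2.12e-12), and TAGLN was higher by 1.30 (adjusted p = 7.40e-13).

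Of 31 keratin, claudin and junction genes, 14 (45.2%) were higher, 9 lower (5 without replicate 1 of both siRNAs) and 8 not called (median 0.06, range 0.0029 to 0.12, moved without siRNA-1 replicate 1, siRNA-2 replicates 1 and 3 or replicate 2 of both). CLDN2 (chromosome X from 106900164 to 106930861), a channel-forming claudin, had 7066, 6882 and 7299.8 normalized counts with siRNA-1 and 18659, 18423 and 17559 with siRNA-2 (log2 difference 1.36, adjusted p = 4.62e-20), and CLDN3, a sealing claudin, was lower, at −0.46 (adjusted p = 8.30e-06). KRT20 (chromosome 17 from 40875941 to 40885227), a keratin of differentiated colon epithelium, had 5542, 6007 and 5789.6 with siRNA-1 and 2580.4, 2592 and 2617 with siRNA-2 (log2 difference −1.15, adjusted p = 7.07e-18). KRT20 was lower with siRNA-2, where KRT17 was higher. Of 11 integrin subunit genes, 3 were higher, 3 lower and 5 not called (median −0.05, range −0.13 to −0.01, moved without siRNA-1 replicates 1, 2 and 3, siRNA-2 replicates 1 and 2 or replicate 3 of both), with ITGB1 and ITGA3 higher by 0.58 and 0.31 and ITGAV and ITGA6 lower, at −0.88 and −0.53. ITGB4 was not called (−0.11, adjusted p = 0.0895), but was called without siRNA-2 replicate 2 (−0.15, adjusted p = 0.0295) and after an adjustment for GC content and length (−0.12, adjusted p = 0.0111).

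Of 12 colon epithelial markers tested, 4 were higher, 5 lower and 3 not called (median −0.04, range −0.08 to −0.02, moved without siRNA-2 replicate 2 or replicates 1 and 2 of both), and 2 to 3 were lower without siRNA-1 replicate 3, siRNA-2 replicate 3, or replicate 1 or replicate 3 of both siRNAs. VIL1, villin, and CDH1, E-cadherin, were higher by 0.66 and 0.52, the factor KLF5 was lower, at −0.27, and KRT19 was not called (−0.06, 95% interval −0.16 to 0.04). Of the 3 tested markers of other lineages, LYZ was lower, at −0.53 (adjusted p = 8.90e-11) and COL1A1 and SYP, each near 20 normalized counts, were not called. Of 18 genes of the 14-3-3 and high mobility group families, 10 (55.6%) were lower, 4 higher and 4 not called (median −0.24). HMGN1, a nucleosome-binding protein, had 6868, 6844 and 6352 normalized counts with siRNA-1 and 2310.3, 2246 and 2188 with siRNA-2 (log2 difference −1.57, adjusted p = 9.54e-21), and YWHAG was lower, at −0.85. DEK, a chromatin protein on the same list, and HMGA2 were higher by 0.87 and 0.40, and HMGB2 was not called (0.08, 95% interval −0.03 to 0.19).

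Around the LIMp27 locus on chromosome 1, 10 genes were tested, of which 2 were higher with siRNA-2 (1 in each of the 4 settings below that lost one), 3 lower and 5 not called (median −0.21). CAPZA1, which caps actin filaments and lies on chromosome 1 from 112619173 to 112671619, had 5358, 5328 and 5113 normalized counts with siRNA-1 and 1698, 1533 and 1593 with siRNA-2. Its log2 difference was −1.71 (standard error 0.05, adjusted p = 2.96e-21), and against control siRNA it was −0.20 with siRNA-1 and −1.92 with siRNA-2. RHOC, a small GTPase, was lower, at −0.33 (adjusted p = 6.09e-06). SLC16A1, a lactate transporter, was higher by 0.20 (adjusted p = 0.00496), a call lost without siRNA-1 replicate 1 (0.14, adjusted p = 0.0646). MAGI3 was higher by 0.26 (adjusted p = 0.0141), a call lost without siRNA-1 replicate 3 (0.19, adjusted p = 0.129), without siRNA-2 replicate 3 (0.13, adjusted p = 0.196) and without both (0.061, adjusted p = 0.626). MOV10 differed by 0.01 (95% interval −0.11 to 0.12).

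**Figure D5:**
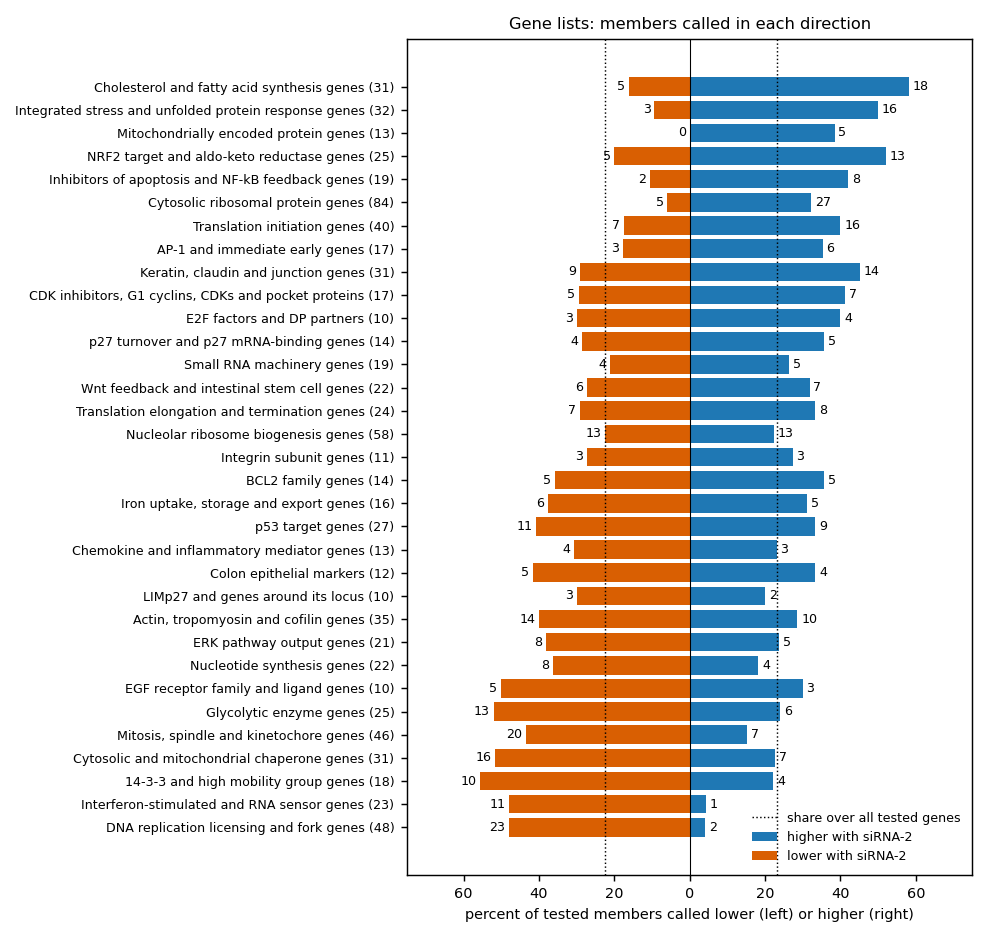
Percent of tested members called lower (orange, left) and higher (blue, right) with LIMp27 siRNA-2 in each gene list, with the number of called members beside each bar and the number tested in brackets, ordered by the share higher minus the share lower. Dotted lines mark the shares over all tested genes, 22.4% lower and 23.1% higher, and the 3 tested markers of other lineages are left out. Cholesterol and fatty acid synthesis, with 18 of 31 higher, stands at the top and DNA replication, with 23 of 48 lower, at the bottom.

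A difference could be bounded closely for some genes. In 2521 genes (17.5% of those tested) the 95% interval lay within 0.25 of 0 on the log2 scale, 2445 of which were not called. In 3 genes the interval lay within 0.1 of 0. They were PCBP1, a poly(C)-binding protein, with 8597, 8565 and 8573 normalized counts with siRNA-1 and 8570.3, 8731 and 8359 with siRNA-2, and the ribosomal protein genes RPL3 and RPS3A, with intervals of −0.09 to 0.10 and −0.10 to 0.10.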

How the data were processed

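Total RNA from WiDr cells was sequenced as strand-specific libraries. The authors deposited 2 tables, 1 for each LIMp27 siRNA with the control siRNA, holding raw read counts per gene and FPKM values, which the authors computed per library. The submitters' processing notes name CASAVA and GRCh38. The aligner, the counter, its strand setting and its treatment of reads that fit several genes are not given in the sources used here. The deposited tables also hold normalized values, fold changes and p-values of the authors' own comparisons, which were not used.

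The tables were joined by gene identifier. The counts of the 6 siRNA libraries were filtered (edgeR filterByExpr, minimum count 10), scaled by TMM factors and tested, siRNA-2 minus siRNA-1, with the quasi-likelihood test of edgeR 4.0.16 in R 4.3.3, two-sided, without covariates. The Benjamini-Hochberg adjustment covered the 14415 tested genes, and genes with an adjusted p under 0.05 were called. Standard errors are the log2 difference divided by the square root of F. Scripts were tested on simulated data. Each siRNA was fitted against control in its own table. Intervals of summed reads are exact Poisson intervals at 95% and, like the floor of 3 reads, cover counting error only.

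Positions are from GENCODE 29, whose coordinates were the same as in the tables for 25155 of 25159 genes. The genes named were the 10 with the largest difference each way among called genes without overlap that averaged 100 normalized counts or more, up to 2 called members each way and the most highly counted uncalled member of each of 34 lists, 7 genes set by name and the highest-count genes with an interval within 0.1 of 0, of which 3 were found where up to 5 were sought. The pseudogenes and the few other list members given with values (among them ACACA, FASN, SREBF1, SREBF2, GCLC, HMOX1, DDIT4, MT-CYB, AKR1C1, AKR1C2 and the chaperonin subunits) were chosen after their values were seen. Some genes that the rule picks are not reported here. The comparison and the lists were chosen with earlier results of these data known. Alternatives were DESeq2 1.42.0, RLE scaling, no filter, all 9 libraries in 1 fit, offsets for GC content and length, a test against 1.2-fold, a replicate block and leaving out libraries.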

Additional observations from a re-analysis of the deposited data

How the results depend on the processing

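Of the 16 alternatives, the test against 1.2-fold moved the number of called genes most, to 1334 higher and 1604 lower with siRNA-2. DESeq2 called 2929 higher and 2960 lower, RLE scaling 3266 and 3296, no filter 3156 and 3297 of 22306 genes, all 9 libraries in 1 fit 3153 and 3443, and offsets for GC content and length 3576 and 3501 of 14410. Leaving out libraries gave 2510 to 3144 higher and 2659 to 3299 lower genes. Genes at least 2-fold apart numbered 240 to 325 higher and 412 to 529 lower over these settings. No named gene changed direction after a call, and 27 of 178 named genes were no longer called in the test against 1.2-fold. In the test against 1.2-fold, most lists also lost called members. Lower members fell from 23 to 11 for replication, from 20 to 7 for mitosis and from 16 to 4 for chaperones. Higher members fell from 16 to 10 for stress response genes, from 27 to 2 for ribosomal protein genes and from 16 to 1 for initiation genes. For mitochondrially encoded genes they fell from 5 to 0. With GC and length offsets, the replication list had 4 members higher in place of 2, the nucleotide list 7 in place of 4, and the AP-1 and integrin lists 5 lower in place of 3. Few reads limited LIMp27 and the genes of lowest count, where 18.3% were called.

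The labels number the libraries of each siRNA 1 to 3. Libraries with the same number did not deviate together, with correlations of 0.031, −0.061 and −0.009 over 14415 genes for numbers 1, 2 and 3, and of the siRNA-1 libraries only replicate 1 correlated best with its own number. A replicate block gave 3311 higher and 3260 lower genes.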
